A study of Mus musculus with 4 samples.

Results

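The small subunit (SSU) processome is the large nucleolar particle in which the precursor of 18S ribosomal RNA is folded, modified and cut on its way to the 40S ribosomal subunit. Its protein subcomplexes assemble on the nascent transcript around the U3 small nucleolar RNA (snoRNA), which pairs with the precursor, and a GTPase and an RNA helicase later take the particle apart so that a pre-40S particle can leave the nucleolus. Growing fibroblasts express these genes throughout, since ribosome production accompanies growth. The members described here are 40 genes for proteins of this pathway, taken as the rows of the deposited transcript table whose symbol equals that of a member, out of 21945 genes in the table. All 40 genes were found, and they were represented by 50 tested transcripts of 34200.

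The samples were NIH/3T3 cells, an immortalised line of mouse embryonic fibroblasts, and RNA was collected 48 h after transfection. Knockdown (KD) cells had received 2 siRNAs against *Setd2*, which encodes the histone methyltransferase that trimethylates lysine 36 of histone H3 (H3K36me3), and the control cells, called wild type (WT), had received a Scrambled siRNA. Both groups therefore carried an siRNA, at 10 nM, and the Lipofectamine reagent, and the comparison was of depleted with non-depleted cells of a single line. There were 2 polyA RNA libraries in each group, and nothing in the labels said whether these came from separate cultures, so that p-values measure the spread between these libraries only.

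Values are normalised estimated counts, and each group value is the geometric mean of its 2 libraries. Values of single libraries and the depth of each library were not used here. The spread between libraries is given as the within-group standard deviation (SD) of the log2 values pooled over both groups. From the same quantities it followed, for most transcripts, whether the 2 KD libraries and the 2 WT libraries could overlap at all. A transcript was called when the adjusted p of limma's moderated test over all 34200 transcripts was under 0.05. In bulk RNA, fewer cells that express a gene cannot be told apart from less RNA per cell. *Setd2* itself, by its only tested transcript, stood at 3680 normalised estimated counts in WT and 923 in KD, a log2(fold change) of -1.99 (95% confidence interval -2.21 to -1.78, adjusted p = 0.014). Of the fibroblast markers all 9 were listed, at summed levels of 1126362 in KD and 1255262 in WT, whereas the epithelial, endothelial and leukocyte markers together held between 57.3 and 409 normalised estimated counts per group and list, with *Epcam*, *Krt18* and *Tyrobp* not listed and *Cd68* the highest of them in both groups.

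Where SSU processome transcripts differed between the groups, they were with 1 exception higher in KD, led by *Nol6*, *Pno1* and *Pwp2*. Relative to *Actb* only these 3 genes were still called higher, and more members were called lower than higher. Of the 50 member transcripts, 16 were called higher and 1 was called lower, and the other 33 were not called (relative to *Actb*, 3 were called higher and 12 lower). None of the 16 was among those 12, although *Wdr46* (-0.035) and *Nob1* (-0.039) fell just below 0 on that scale. The 12 were the transcript already called lower and members not called before. Over all transcripts 5.44% were called higher and 4.24% lower, and among the 18808 transcripts whose mean reached 100 normalised estimated counts, as 47 of the 50 members did, 9.1% were called higher and 6.55% lower. The median level of the member transcripts was 3939 normalised estimated counts, beside 155 over all transcripts. Shares called were larger in the set of at least 100, and no set matched to the members in level was compared. The median log2(fold change) of the members was 0.30, beside -0.01 over all transcripts and 0.05 over those of at least 100. Relative to *Actb*, whose main transcript was itself called higher in KD by 0.46, the direction of this median turned to -0.16 (beside -0.47 over all transcripts), and the same shift of 0.46 would apply to every difference given here. On that scale 1.55% of all transcripts were called higher and 27.2% lower, so that the members' 12 of 50 lower was near the general share, and the 3 members called higher were *Nol6* (0.68, adjusted p = 0.0081), *Pno1* (0.59, adjusted p = 0.015) and *Pwp2* (0.34, adjusted p = 0.032). With 1 prior variance for all transcripts in place of a trend with expression, no member was called in either direction, and neither was *Setd2*.

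**Figure D1:**
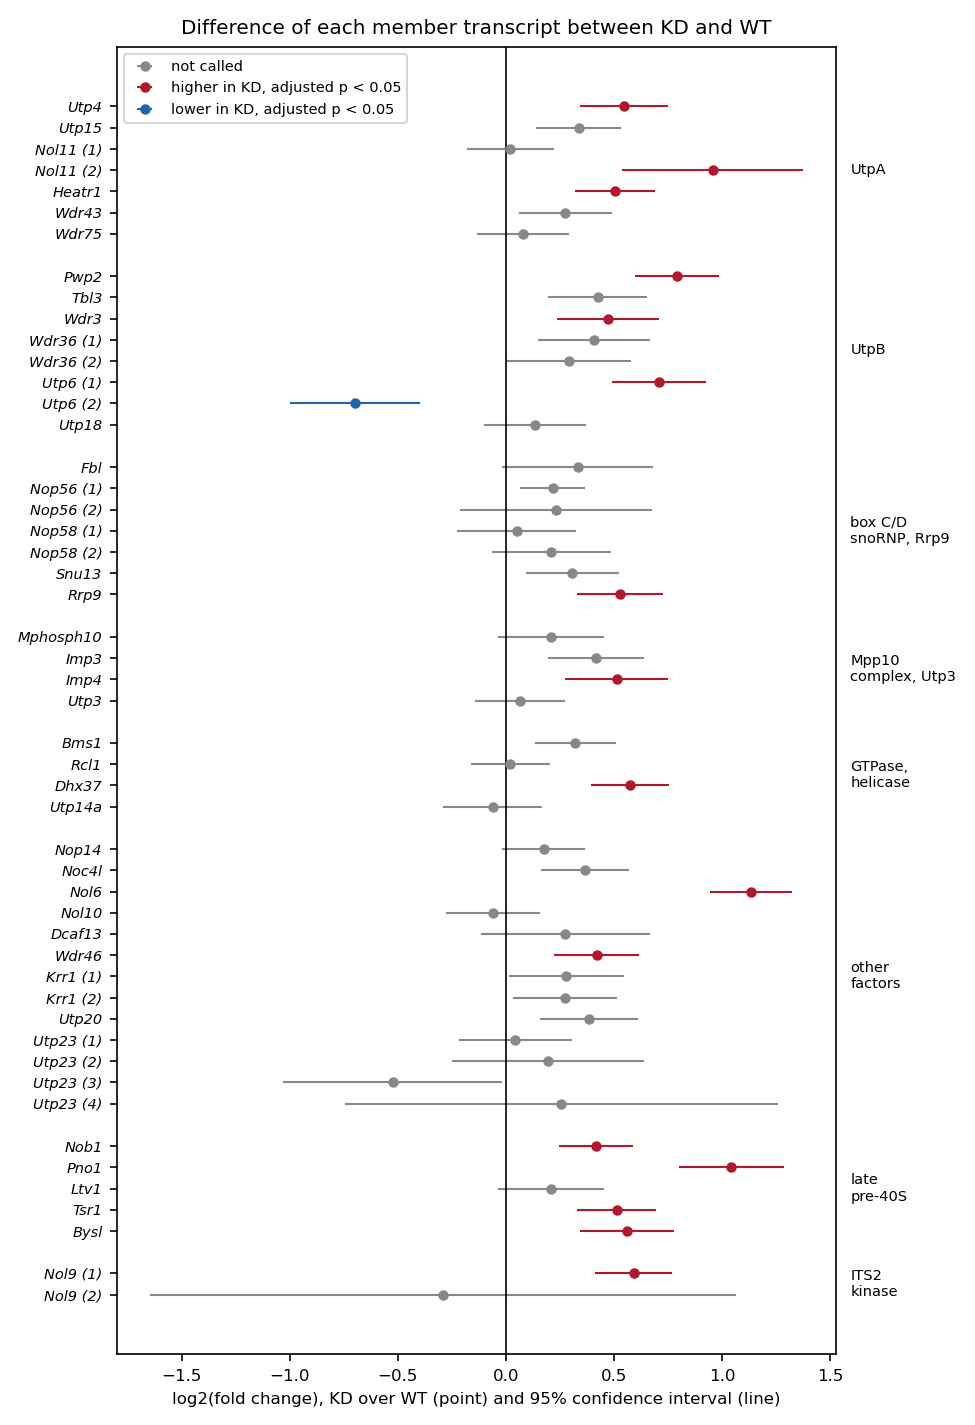
Differences between KD and WT for the 50 member transcripts, as log2(fold change) on the x axis, grouped by subcomplex; points are group differences, lines are 95% confidence intervals, and numbers in brackets order the isoforms of a gene by level. The 16 transcripts called higher lie between 0.42 and 1.13, and *Utp6* (2) is the 1 called lower; relative to *Actb* every point would move left by 0.46.

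Counted by gene, 16 of the 40 had a transcript called higher, and 24 had none called. When transcripts were summed per gene, 38 genes stood above their WT level and 2 below it (12 above and 28 below relative to *Actb*), with a median log2(fold change) of 0.35. From the lower to the upper quartile the genes lay between 0.20 and 0.51. Only *Nol6* and *Pno1* of these 40 genes reached 1 or more, and 11 genes reached 0.5 or more. Calls per gene and summed levels were not worked out over all 21945 genes, so no general share stands beside these counts. Shares per transcript do not replace it, because a gene counted as called if any of its isoforms was. Among the single transcripts, 45 lay above 0 and 5 below (14 above relative to *Actb*). A further 9 member transcripts, all above WT, had an adjusted p between 0.05 and 0.1, as did 4.73% of all transcripts in that direction. At an unadjusted p under 0.05, 29 members were higher and 2 lower, beside 15.2% and 13% of all transcripts.

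**Figure D2:**
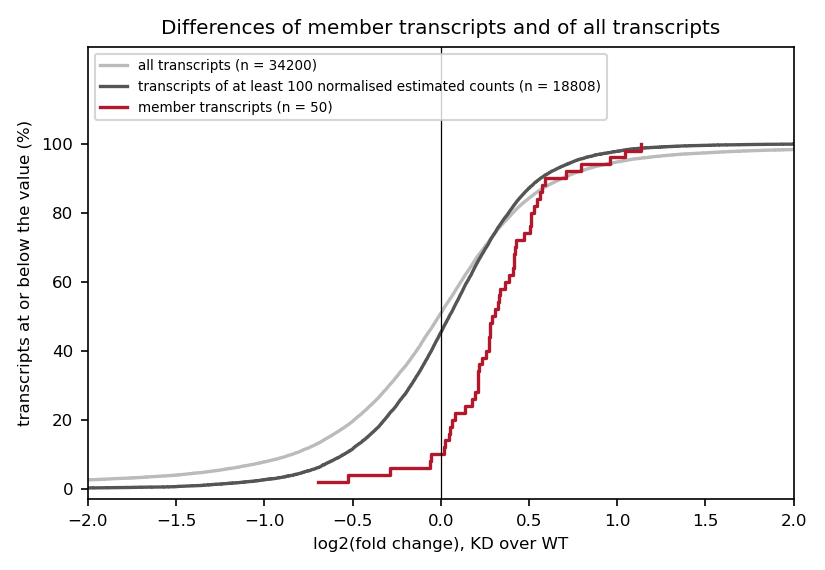
Cumulative share of transcripts (y axis, %) at or below each log2(fold change) of KD over WT (x axis, shown from -2 to 2), for the 50 member transcripts, the 18808 transcripts of at least 100 normalised estimated counts and all 34200. The member curve runs to the right of both others over most of its length and meets them at the top, with 90% of member transcripts above 0 beside 54.7% and 49.2%; relative to *Actb* all 3 curves would move left by 0.46.

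The spread between libraries was small for most members. The within-group SD of the log2 values had a median of 0.08 over the 50 transcripts and stayed at or under 0.23 for those of at least 100 normalised estimated counts. For 35 members (70%) the KD libraries must both have lain above both WT libraries, beside 27.3% of all transcripts and 36.6% of those of at least 100, and for 2 members (4%) both must have lain below, beside 27.6% and 28.7%. Neither of these sets was matched to the members in level. For 9 members the groups must have overlapped, and for 4 the deposited values do not settle it. All 17 called members were among those that could not overlap. A call requires this, since both rest on the same difference and spread, so it adds no support to the calls.

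UtpA, also called the t-UTP subcomplex, is the first to bind the nascent precursor and is known to link its processing with transcription by RNA polymerase I. Of its 7 transcripts from 6 genes, 3 were called higher and none lower, with a median log2(fold change) of 0.34. *Utp4*, a WD repeat protein of this subcomplex, was at 4832 normalised estimated counts in WT and 7061 in KD, a log2(fold change) of 0.55 (95% confidence interval 0.34 to 0.75, adjusted p = 0.029). *Heatr1*, the large HEAT repeat scaffold of UtpA, went from 4214 to 5979 (0.50, 95% confidence interval 0.32 to 0.69, adjusted p = 0.028). For both genes the KD libraries lay above the WT libraries, as their calls require. *Utp15* differed by 0.34 (adjusted p = 0.063) and *Wdr43* by 0.28 (adjusted p = 0.11), and neither was called although their groups could not overlap. *Wdr75*, at 5226 in WT and 5525 in KD, showed the smallest summed difference of the subcomplex, 0.08 (95% confidence interval -0.13 to 0.29).

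*Nol11*, the remaining UtpA member, had isoforms that moved unequally. Its main isoform was at 4617 normalised estimated counts in WT and 4683 in KD, a log2(fold change) of 0.02 (95% confidence interval -0.18 to 0.22), and the libraries of the groups overlapped. The minor isoform was at 347 in WT and 674 in KD and was called higher, with a log2(fold change) of 0.96 (95% confidence interval 0.54 to 1.38, adjusted p = 0.037). Its share of the summed *Nol11* level was 6.99% in WT and 12.6% in KD. The summed level therefore differed by only 0.11. The isoforms differ in a single place, in exon 14 of 18, where the main isoform has 60 more coding bases (20 codons) at the 5′ end of the exon, at chr11:107173402-107173461 on the minus strand of GRCm38. These bases are what separates the called from the not called isoform, so they are shown here in capitals, followed by the first 20 bases that both isoforms share (chr11:107173382-107173461 in all).

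Nol11 exon 14: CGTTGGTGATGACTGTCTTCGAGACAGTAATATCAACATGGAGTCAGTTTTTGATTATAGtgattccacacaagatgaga

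Reads over this stretch, or across its ends, are the ones that tell the isoforms apart. The technical SD of the minor isoform, by which Sleuth measures how uncertain the assignment of reads was, amounted to 0.32 on the log2 scale, larger than its within-group SD of 0.19. With the residual variance kept no lower than this technical variance, the isoform was also called (adjusted p = 0.0031 by limma's moderated test). That setting called more members higher, 24 in place of 16, so it was not a stricter check of this call. The difference between the isoforms themselves was not tested.

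UtpB contacts both the precursor and the U3 snoRNA. It had 8 transcripts from 6 genes, of which 3 were called higher and 1 lower, and its median log2(fold change) was 0.42. *Pwp2*, a WD repeat protein at the core of UtpB, had the largest difference of the subcomplex, with 3229 normalised estimated counts in WT and 5590 in KD (0.79, 95% confidence interval 0.60 to 0.99, adjusted p = 0.019). Libraries of one group could not differ by more than 0.11 for this gene. *Wdr3* went from 4241 to 5887 (0.47, 95% confidence interval 0.24 to 0.71, adjusted p = 0.046). *Tbl3*, at 0.42, just missed the threshold (adjusted p = 0.053). Both isoforms of *Wdr36* were above WT, by 0.41 (adjusted p = 0.072) and 0.29 (adjusted p = 0.17), and neither was called. *Utp18* showed the smallest difference in UtpB, 0.14 (95% confidence interval -0.10 to 0.37).

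*Utp6* was the gene with a call in each direction. The isoform with 19 exons was at 2837 normalised estimated counts in WT and 4635 in KD and was called higher (0.71, 95% confidence interval 0.49 to 0.93, adjusted p = 0.023). The isoform with 20 exons was at 1226 in WT and 756 in KD and was the only member transcript called lower (-0.70, 95% confidence interval -0.997 to -0.40, adjusted p = 0.036). The technical SD of this isoform was 0.18 on the log2 scale, larger than its within-group SD of 0.12. For both isoforms the groups of libraries could not overlap, as their calls require. The isoforms encode the same protein, with 1791 coding bases each, and part after the stop codon. The 19-exon isoform ends in an exon of 2157 bases at chr11:79933953-79936109 (GRCm38, minus strand), while the 20-exon isoform leaves that exon early and ends in a separate exon of 394 bases further downstream, at chr11:79932321-79932714. The share of the 20-exon isoform in the summed level was 30.2% in WT and 14.0% in KD, and per base of transcript length it was 42.1% and 21.5%. Summed over both, *Utp6* differed by 0.41. The call of the 20-exon isoform was lost when differences were centred on a trend with GC content (log2(fold change) -0.64), and the difference between the isoforms was not tested.

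**Figure D3:**
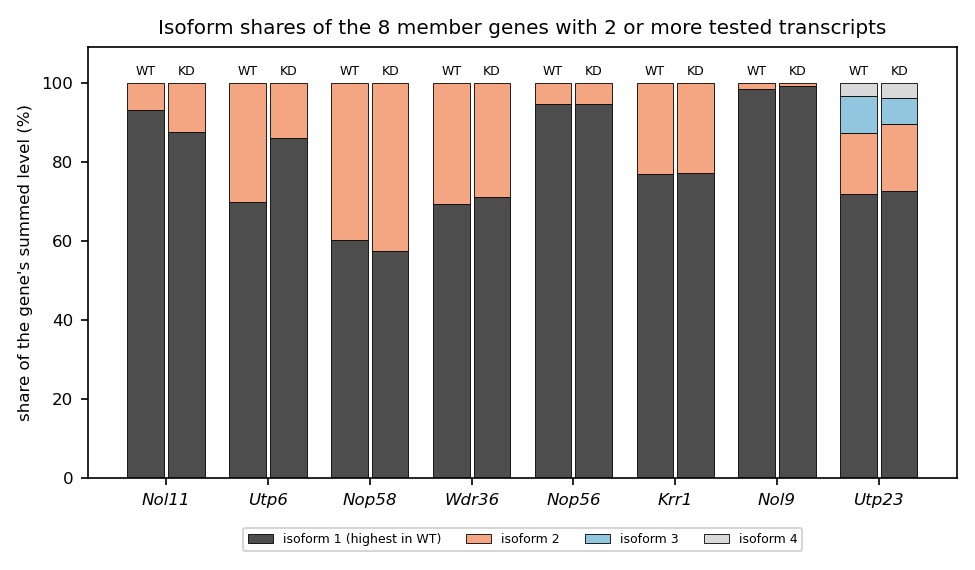
Share of each isoform in the summed level of its gene (y axis, % of normalised estimated counts) in WT and KD, for the 8 member genes with 2 or more tested transcripts; each bar is the value from a group mean of 2 libraries, and colours order the isoforms by WT level. *Utp6* moved most, its main isoform going from 69.8% to 86.0%, and *Nol11* next, from 93.0% to 87.4%, while *Nop56* and *Krr1* bars are almost level.

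The box C/D small nucleolar ribonucleoproteins direct methylation of ribose in ribosomal RNA, and U3 is a box C/D RNA that guides cutting instead. Their core proteins had the highest levels per length among the members. Per kb of transcript, *Nop56*, a scaffold of the particle, was at 13295 normalised estimated counts in WT, *Fbl*, the methyltransferase, at 11478, *Nop58* at 5935 and *Snu13*, which binds the RNA's kink-turn, at 4623, beside a median of 1554 over the 40 genes. None of the 6 transcripts of these 4 genes was called. *Fbl* differed by 0.33 (95% confidence interval -0.02 to 0.68, adjusted p = 0.19), with a within-group SD of 0.18, and *Snu13* by 0.31 (adjusted p = 0.089). The main isoform of *Nop56*, with the smallest SD of any member transcript (0.01), differed by 0.22 (adjusted p = 0.089) and its short 7-exon isoform by 0.23. *Nop58* showed 0.05 for its main isoform (95% confidence interval -0.23 to 0.33) and 0.21 for a form of 9507 bases (-0.06 to 0.49), and its summed difference of 0.12 was the smallest of this group.

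*Rrp9*, the protein found on U3 and on no other box C/D RNA, was called. It was at 2694 normalised estimated counts in WT and 3886 in KD, a log2(fold change) of 0.53 (95% confidence interval 0.33 to 0.73, adjusted p = 0.029). This call was lost after centring on GC content (0.35). Whether *Rrp9* differs from the core proteins in its response was not tested.

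The Mpp10 complex joins the particle with U3. *Imp4*, one of its RNA-binding subunits, was called higher, from 3805 normalised estimated counts in WT to 5433 in KD (0.51, 95% confidence interval 0.28 to 0.75, adjusted p = 0.041). *Imp3*, its partner, was at 1240 and 1654 (0.42, adjusted p = 0.052). *Mphosph10*, the subunit that gives the complex its name, differed by 0.21 (95% confidence interval -0.04 to 0.46). *Utp3*, known in yeast as Sas10, showed the smallest difference of these 4 genes, 0.06 (95% confidence interval -0.14 to 0.27), and its groups overlapped.

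Among the enzymes and partners that drive maturation, *Dhx37*, the helicase that removes U3 from the precursor, rose from 3041 to 4529 normalised estimated counts (0.57, 95% confidence interval 0.39 to 0.76, adjusted p = 0.024). *Utp14a*, the protein that activates this helicase, was at 2562 in WT and 2455 in KD, the lowest summed difference of all 40 genes (-0.06, 95% confidence interval -0.29 to 0.17). The GTPase *Bms1* differed by 0.32 (adjusted p = 0.063), and *Rcl1*, which binds Bms1, by 0.02 (95% confidence interval -0.16 to 0.20). Thus 1 of the 4 genes was called, and for *Utp14a* and *Rcl1* the groups of libraries overlapped.

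The largest rise of any member was that of *Nol6*, the homologue of yeast Utp22. It stood at 2104 normalised estimated counts in WT and 4620 in KD, an increase of 120% and a log2(fold change) of 1.13 (95% confidence interval 0.95 to 1.32, adjusted p = 0.015). Libraries of one group could differ by at most 0.07. In WT *Nol6* had the lowest level per length of the 40 genes, at 457 normalised estimated counts per kb, and in KD it was at 1005. *Wdr46*, a WD repeat protein, was the other factor called in this set of 9 genes, from 3136 to 4198 (0.42, 95% confidence interval 0.22 to 0.62, adjusted p = 0.041), and its call was lost after centring on GC content (0.22). *Utp20*, a very large HEAT repeat protein, differed by 0.39 (adjusted p = 0.064), *Noc4l* by 0.37 (adjusted p = 0.055) and its partner *Nop14* by 0.18 (adjusted p = 0.20). *Dcaf13* differed by 0.28 with a wide interval (-0.11 to 0.67), and *Krr1*, a KH domain protein, by 0.28 and 0.27 for its isoforms. *Nol10* was slightly below WT (-0.06, 95% confidence interval -0.28 to 0.16).

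*Utp23*, for a PIN domain protein, was the gene with the most tested isoforms. Its 4 transcripts had mean levels from 40.6 to 797 normalised estimated counts. The isoform with the lowest log2(fold change), -0.52 (95% confidence interval -1.03 to -0.02, adjusted p = 0.17), was at 103 in WT and 71.4 in KD, and the main isoform differed by 0.04. The summed level differed by 0.03. No isoform of *Utp23* was called.

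The late factors stay with the pre-40S particle after it leaves the processome. Of these 5 genes, 4 were called higher, and all 5 had groups of libraries that could not overlap, with a median log2(fold change) of 0.51. Over all transcripts of at least 100 normalised estimated counts, 9.1% were called higher. For 36.6% of them the KD libraries must have lain above the WT libraries. Differences between the subcomplexes were not tested. *Pno1*, which holds the 3′ end of the future 18S RNA, went from 4176 normalised estimated counts in WT to 8607 in KD (1.04, 95% confidence interval 0.80 to 1.29, adjusted p = 0.018). *Nob1*, the endonuclease that makes the final cut and binds Pno1, went from 4216 to 5631 (0.42, 95% confidence interval 0.25 to 0.59, adjusted p = 0.033), with a within-group SD of only 0.02. *Tsr1*, a GTPase-like factor, went from 7498 to 10695 (0.51, 95% confidence interval 0.33 to 0.70, adjusted p = 0.028), and *Bysl*, known in yeast as Enp1, from 2841 to 4190 (0.56, 95% confidence interval 0.34 to 0.78, adjusted p = 0.030). *Ltv1*, an assembly factor of the pre-40S particle, was not called, at 0.21 (95% confidence interval -0.03 to 0.45, adjusted p = 0.23). After centring on GC content *Nob1* was no longer called (0.32), and relative to *Actb* it fell just below 0 (-0.039), as did *Wdr46* (-0.035).

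*Nol9* belongs to another branch of the pathway, since the polynucleotide kinase it encodes acts on the spacer that separates the RNAs of the large subunit. Its main isoform was called higher, from 3052 normalised estimated counts in WT to 4597 in KD (0.59, 95% confidence interval 0.41 to 0.77, adjusted p = 0.022). The other tested isoform was at 46.1 and 37.6 and had an interval from -1.65 to 1.07, so that no difference was detectable at this level.

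**Figure D4:**
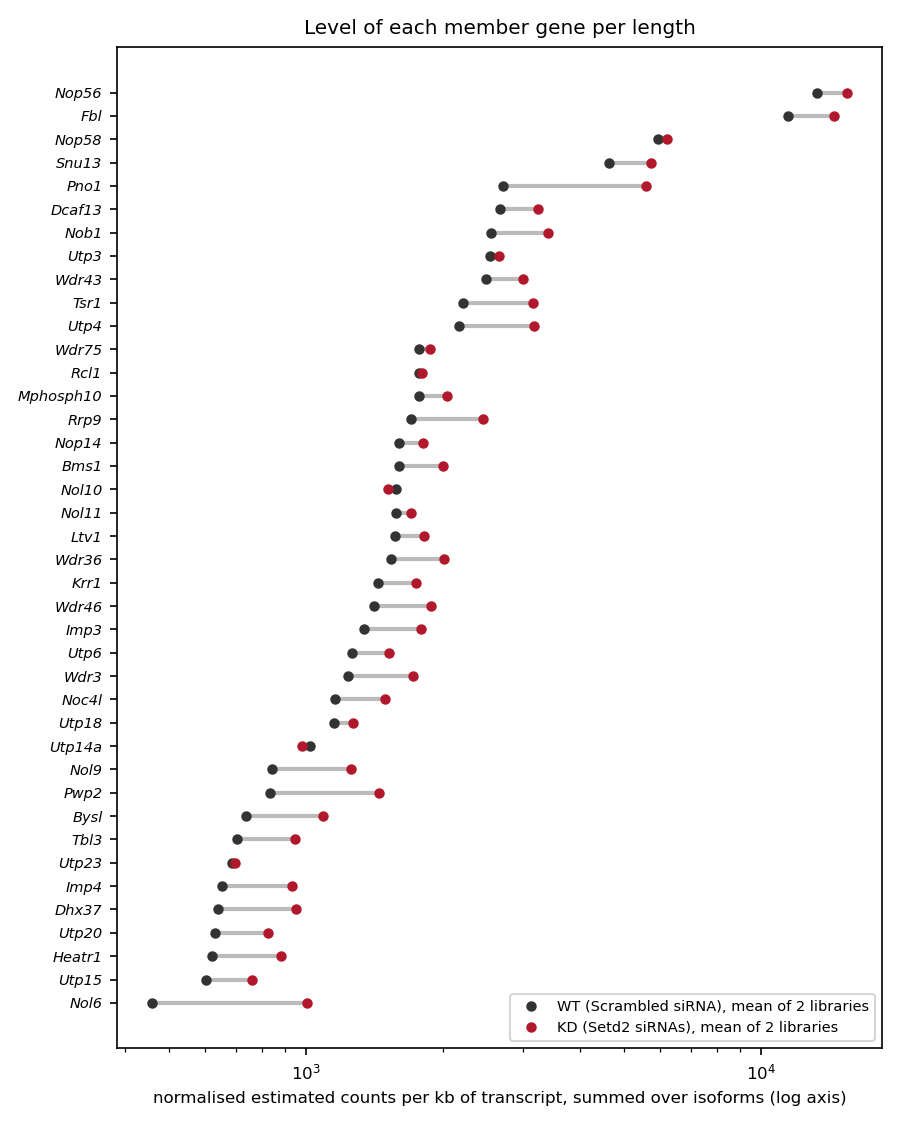
Level of the 40 member genes in WT and KD, as normalised estimated counts per kb of transcript summed over isoforms (log x axis); each point is the mean of 2 libraries and lines join the groups. *Nop56* and *Fbl* are the highest and *Nol6* is the lowest in WT, and the longest lines belong to *Nol6* and *Pno1*; KD lies right of WT for 38 genes by summed level, a direction that turns relative to *Actb* for genes with a log2(fold change) under 0.46.

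The called and not called members did not differ much in level. The 16 transcripts called higher had a median level of 3997 normalised estimated counts, and the 30 not called of at least 100 had 4242. Their GC content was less alike, with medians of 50.8% and, over the 33 not called, 46.8%, beside 49.2% over all transcripts. After centring on a trend with GC content, 14 members were called higher and none lower, with a median of 0.33. The part of GC content in the differences was not tested further.

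Sequence shared with other genes limited what could be said of some members. The share of 31-base words found in no other annotated gene was at least 95% for 28 of the 40 genes, whose 32 transcripts held 13 of the calls higher and the 1 call lower, with a median of 0.35. It was 21% for *Fbl*, 61.8% for *Tbl3*, 62.9% for *Nop56* and 64.3% for *Tsr1*. *Tbl3* shares 2122 exonic bases with *Noxo1* on the opposite strand, *Tsr1* shares 1159 with *Srr* and *Bysl* 361 with *Ccnd3*. The library kit keeps strand, but whether the quantification used it is not given in the sources used here. The summed level of *Noxo1* was 58.1 in KD and 72.7 in WT, that of *Srr* 1287 and 1491, and that of *Ccnd3* 4154 and 3136. *Bysl* and *Ccnd3* thus both stood higher in KD, by 0.56 and 0.41, and their values are uncertain to the extent of the shared bases. *Wdr43*, *Nop56*, *Nop58* and *Tsr1* also host 14 annotated snoRNAs in all within their gene bodies, which were not tested here.

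Other genes of small subunit processing, sought by a list of 25 symbols of which 23 were in the table (both of the others are older or newer names of listed genes), had 27 tested transcripts. Of these 7 were called higher and none lower, beside 5.44% and 4.24% of all transcripts. Their median log2(fold change) was 0.32 (-0.13 relative to *Actb*, beside -0.47 over all transcripts). *Rrp7a*, a partner of Nol6, was at 4105 normalised estimated counts in WT and 6812 in KD (0.73, adjusted p = 0.020). The RNA helicase genes *Ddx10* (0.70, adjusted p = 0.029), *Ddx47* (0.54, adjusted p = 0.047) and *Ddx49* (0.47, adjusted p = 0.040) were called as well, and so were *Rrp36* (0.66, adjusted p = 0.034), *Fcf1* (0.62, adjusted p = 0.030) and *Rrp12* (0.44, adjusted p = 0.037). Most of the 27 transcripts were not called. These ranged from -0.20 for the main isoform of *Utp14b* to 0.69 for the minor isoform of *Fcf1*. They included the helicase gene *Ddx52* (0.03) and the kinases *Riok1* (-0.14), *Riok2* (-0.02 for its main isoform) and *Riok3* (0.13), which act late on pre-40S particles. Relative to *Actb* none of these 27 transcripts was called higher and 9 were called lower, beside 1.55% and 27.2% of all transcripts. The 9 lower were thus near the general share.

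Of the members, 12 start within 1000 bases of a protein-coding gene that runs the other way and that was tested (leaving aside *Gm20517*, which starts beside *Med20*), so that member and neighbour share a start region. Of the 12 neighbours 6 had a summed level above WT and 1 had a called transcript. Among all single transcripts 49.2% lay above 0, and 54.7% of those of at least 100 normalised estimated counts. Of all transcripts 5.44% were called higher and 4.24% lower, and the neighbours did not stand out from these shares. The shares are of single transcripts, though, while the neighbours were counted as genes, some with several tested transcripts. The *Nol9* neighbour *Tas1r1*, among the 6, was barely expressed (20.5 in KD and 17.2 in WT). *Noc4l* and *Ddx51*, whose starts lie 34 bases apart, had nearly the same summed difference, 0.37 each, and *Ddx51* was called (adjusted p = 0.045). *Wdr46* and *Pfdn6* were also alike, at 0.42 and 0.38. *Utp4* and *Chtf8*, with starts 35 bases apart, stood at 0.55 and -0.04, and *Wdr3* and *Gdap2*, 26 bases apart, at 0.47 and -0.06. *Mphosph10* and *Mcee* lay furthest apart, at 0.21 and -0.65, where the main transcript of *Mcee* had an adjusted p of 0.060. The differences within pairs were not tested.

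**Figure D5:**
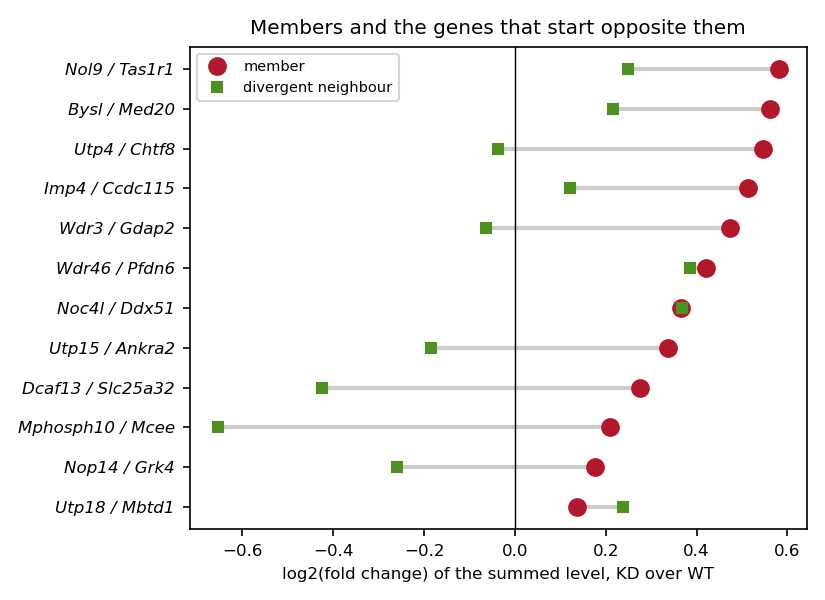
Log2(fold change) of the summed level of KD over WT (x axis) for 12 members (circles) and the protein-coding neighbours that start opposite them (squares), joined by lines. All 12 circles lie above 0 and 6 of the squares do, beside 49.2% of all transcripts, counted singly and not summed per gene. For *Noc4l* and *Ddx51* the symbols coincide, and relative to *Actb* all symbols would move left by 0.46.

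The start regions of the members were read in RefSeq windows of 300 bases, from 250 before to 50 after the annotated start (GRCm38.p6). Of the 40 genes 33 had at least 1 window, with 34 windows in all. *Utp23*, *Wdr36*, *Dcaf13*, *Nol6*, *Utp6*, *Fbl* and *Tbl3* had none. On both strands, CACGTG, the letters of the canonical E-box, were in 10 of the 34 windows (29.4%), beside 7.15% of all 32851 windows and 10.2% of the 11355 windows of genes with a tested transcript of at least 100. CCGGAAG, a core of ETS-type sites, was in 41.2% of member windows, 8.86% of all and 18.6% of the windows of those expressed genes. For GGGCGG, the core of GC boxes, these shares were 73.5%, 35.7% and 63.6%, and for CCAAT they were 44.1%, 37.4% and 38.9%. TATAAA was in 2.94%, 13.6% and 6.72%, and TGACGTCA in 2.94%, 1.79% and 3.20%. None of these letter strings contains another, although neighbours can share bases. These are matches of letters and not sites shown to be bound.

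The 10 members with CACGTG are the set in which this match can be compared with the measured differences, and their sites are shown with up to 12 bases on each side, the match in capitals and the strand that of the gene, in order of falling log2(fold change) of the summed level, which follows the position of the first capital (counted from 1 at the start and from -1 before it).
Pno1 (chr11:17211540-17211564, minus, first base at 38, 1.04): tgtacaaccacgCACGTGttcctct
Utp4 (chr8:106893643-106893672, plus, at 16, 0.55): tgcgcaagcgcgCACGTGgggccggggcgg
Imp4 (chr1:34439696-34439725, plus, at -121, 0.51): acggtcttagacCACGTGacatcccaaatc
Tsr1 (chr11:74898092-74898121, plus, at 25, 0.51): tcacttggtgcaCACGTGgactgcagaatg
Wdr46 (chr17:33940699-33940728, plus, at -12, 0.42): aagggagtttcgCACGTGgatcgttgttcg
Utp20 (chr10:88826765-88826789, minus, at 38, 0.39): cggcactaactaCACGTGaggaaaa
Wdr43 (chr17:71616220-71616249, plus, at 18, 0.28): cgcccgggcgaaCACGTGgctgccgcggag
Ltv1 (chr10:13193092-13193121, minus, at 29, 0.21): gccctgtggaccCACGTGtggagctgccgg
Utp18 (chr11:93885769-93885798, minus, at -20, 0.14): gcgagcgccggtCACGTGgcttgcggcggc
Nol11 (chr11:107189407-107189436, minus, at -43, 0.11): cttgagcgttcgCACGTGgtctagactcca

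By summed difference these 10 members ran from *Pno1* (1.04, rank 2 of the 40 genes) to *Nol11* (0.11, rank 34). The 40 genes ran from 1.135 for *Nol6*, which had no window, to -0.06 for *Utp14a*. No gene ranked below *Nol11* had a match, and of these *Utp23* had no window. Of the 14 genes with a window and a transcript called higher, 6 had CACGTG and 7 had CCGGAAG. Among the 6, *Nol11* was called only by its minor isoform, while its main isoform differed by 0.02. Of the 19 with a window and no such call, 4 had CACGTG and 7 had CCGGAAG. The letters of the GC box, GGGCGG, were in 9 of the 14 and in 15 of the 19.

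The 250 bases before the start are shown for the ends of the order, the 2 members with 1 window and the largest summed difference (*Pno1* and *Pwp2*) and the 2 with the smallest (*Nol10* and *Utp14a*), with CCGGAAG and GGGCGG of either strand in capitals. They lie at chr11:17211590-17211839 (minus), chr10:78185150-78185399 (minus), chr12:17348243-17348492 (plus) and chrX:48256684-48256933 (plus).
Pno1: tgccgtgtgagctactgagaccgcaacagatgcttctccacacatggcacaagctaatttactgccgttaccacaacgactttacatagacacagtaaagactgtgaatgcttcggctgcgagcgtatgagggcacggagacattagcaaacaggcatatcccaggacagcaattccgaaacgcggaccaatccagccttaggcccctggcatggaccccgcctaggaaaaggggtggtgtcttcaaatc
Pwp2: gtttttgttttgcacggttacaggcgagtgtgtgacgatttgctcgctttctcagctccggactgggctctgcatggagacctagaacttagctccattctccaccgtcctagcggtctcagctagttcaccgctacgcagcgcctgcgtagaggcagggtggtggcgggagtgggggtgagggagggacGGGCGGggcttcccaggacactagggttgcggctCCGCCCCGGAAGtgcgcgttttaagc
Nol10: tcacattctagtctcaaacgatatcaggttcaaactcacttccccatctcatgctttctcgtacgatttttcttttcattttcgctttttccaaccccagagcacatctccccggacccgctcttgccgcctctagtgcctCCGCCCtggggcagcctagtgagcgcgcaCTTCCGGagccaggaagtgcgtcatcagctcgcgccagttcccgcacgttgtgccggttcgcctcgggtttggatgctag
Utp14a: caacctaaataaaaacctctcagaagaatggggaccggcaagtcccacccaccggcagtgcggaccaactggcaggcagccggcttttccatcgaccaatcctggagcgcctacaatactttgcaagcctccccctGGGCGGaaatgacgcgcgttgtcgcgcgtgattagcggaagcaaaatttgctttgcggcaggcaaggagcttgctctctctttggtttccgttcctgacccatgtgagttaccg

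The stretch before *Pno1*, which rose by 1.04, held neither string, that of *Pwp2* (0.79) held 1 CCGGAAG and 2 GGGCGG, that of *Nol10* (-0.06) held 1 of each, and that of *Utp14a* (-0.06) held 1 GGGCGG. Their GC contents were 52.4%, 61.2%, 56.0% and 56.0%.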

How the data were processed

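RNA-seq libraries of 2 KD and 2 WT (Scrambled) samples were polyA-selected with a stranded kit and sequenced in 1 lane. Per the labels and the study's methods, the authors trimmed reads, estimated transcript counts with Kallisto against GRCm38 and modelled them in Sleuth, and HISAT2 and bcl2fastq 2.17 are also named. The transcript table holds no single libraries. In it the authors deposited natural log values of normalised estimated counts plus 0.5, as each transcript's mean and variance over the 4 libraries, its technical variance (the uncertainty of quantification) and the coefficient of condition. That coefficient was taken as the difference of group means. Its p-values, q-values and standard errors, and the gene table, were not used.

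The residual variance (2 degrees of freedom) follows exactly from variance and difference. It was moderated with limma 3.58.1 (R 4.3.3) with a trend on the mean, giving 4.66 total degrees of freedom, over all 34200 transcripts, with Benjamini-Hochberg adjustment and a call at an adjusted p under 0.05. The test was tried on simulated data. Group levels are the back-transformed means less 0.5, and sums per gene carry no test. GENCODE M21 gave positions (98.6% of transcripts matched by identifier and version, and all 50 members) and RefSeq the promoter windows. Every member is named, with intervals for called transcripts and for the largest and smallest difference per subcomplex. The members, lists and tests were chosen with earlier results of these data known. Alternatives were 1 prior variance, a mean of at least 100, the technical variance as a floor, centring, scaling to *Actb*, and, chosen after seeing the data, a GC trend, the *Actb* scaling of summed levels and members with at least 95% own words. In the scaling to *Actb*, its difference was subtracted as a fixed value without its own error. Library depth is unknown, so no counting intervals are given.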

Additional observations from a re-analysis of the deposited data

How the results depend on the processing

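The results depended most on the variance model and the scaling. The 16 member transcripts called higher and 1 called lower became 0 and 0 with 1 prior variance, where all transcripts had 51 calls higher and 76 lower in place of 1861 and 1451 and *Setd2* kept its log2(fold change) of -1.99 but not its call. Relative to *Actb* they became 3 and 12 (all transcripts 530 and 9298, so that 5.39% of calls were higher in place of 56.2%), the members' median turned from 0.30 to -0.16, and *Wdr46* reversed to -0.035 and *Nob1* to -0.039. With a GC trend they became 14 and 0 (all transcripts 1138 and 989). They were 24 and 1 at a mean of at least 100 (2926 and 2039) and 24 and 1 with the technical variance as floor (2961 and 2035), and 18 and 1 when centred. By subcomplex, the filter at 100 moved the transcripts higher to 5 in UtpB, 2 in the box C/D set, 2 in the Mpp10 set, 2 in the GTPase and helicase set and 4 among other factors, from 3, 1, 1, 1 and 2. For the other small subunit genes, 7 higher and none lower became 0 and 0 with 1 prior variance, 0 and 9 relative to *Actb* (median -0.13 from 0.32) and 4 and 0 with a GC trend. The median of the summed levels turned to -0.10 relative to *Actb* and was 0.35 to 0.36 under the other alternatives, and the number of genes whose main isoform had a smaller share in KD was 3 also per base of length. The causes were not tested. No paired analysis was possible because the deposited table holds no single libraries, and leaving out a library, a replicate block and count models were not run for the same reason.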
